A study of Mus musculus with 11 samples.

Results

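Whole lungs of C57BL/6 mice given naphthalene were compared with lungs of untreated mice, in 6 RNA-seq libraries chosen by their labels. There were 3 libraries of each kind, among 11 in the series; the other 5 came from mice that received osimertinib, which inhibits the EGF receptor, after naphthalene. RNA was total RNA of lung tissue depleted of ribosomal RNA, and all groups share the mouse strain. Dose, time after naphthalene, age, sex and batch are not given in the sources used here. Nor do the labels tie replicates to separate animals, and p-values then cover only the spread among these libraries, which may be technical. The comparison asks what the naphthalene injury alone left in the lung, without the drug.

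Naphthalene is a classical way to injure the small airways of the mouse. Club cells, the secretory cells of the bronchioles, carry the cytochrome P450 Cyp2f2, which turns naphthalene into reactive epoxides, so these cells are lost while most other lung cells survive. The airway is then repaired by surviving club cells and their progenitors, with proliferation in the epithelium and a passing inflammation. Ciliated cells of the same airways lack Cyp2f2 and serve as a comparison, as do the alveolar type 1 cells of gas exchange and the surfactant-making alveolar type 2 cells.

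The makeup of the libraries differed between the groups. In naphthalene 1, 2 and 3, ENSMUSG00000119584, a gene left unnamed by the reference tables, took 52.6%, 60.3% and 46.8% of the gene reads, while in each control library it took at most 0.0252%. Outside this gene the naphthalene libraries held 2018541 to 2686323 reads and the control libraries 9848922 to 11823095, and 1 read was worth 0.316 to 0.459 of the deposited unit in naphthalene against 0.0568 to 0.0668 in control. The values are CPM, scaled reads of a normalised library size, so a gene near 1 rests on 2 or 3 reads in a naphthalene library. Osimertinib 2 carried the same gene at 43.9% of its reads and is set beside the results below as the only library outside the naphthalene group with that makeup. Read share, depth and treatment otherwise cannot be told apart, because all 3 naphthalene libraries and no control library had the high share. Naphthalene 3 also stood apart from its own group: its counts differed from those of naphthalene 1 and 2 by 41.7 and 39.5 times the counting variance, where naphthalene 1 and 2 differed by 4.71 times and the control libraries by 3.66 to 13.3 times. Lung was recognisable in all 6 libraries, with Sftpc of type 2 cells at 5939.6 or more, Scgb1a1 of club cells at 3965 or more and Ager of type 1 cells at 642 or more.

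Across the genome, lower values were more common than higher ones in naphthalene, and with limma on all 11 libraries no gene passed the test. In that fit 0 of 16225 genes passed an adjusted p of 0.05 (0%), and the smallest adjusted p was 0.258. At an unadjusted p under 0.05 there were 1211 genes (7.46%), 280 higher (1.73%) and 931 lower (5.74%). Control and naphthalene values were apart in 802 higher genes (4.94%) and 1824 lower genes (11.2%). Log2 differences lay below 0 for 62.0% of genes and above 0 for 38.0%, with a median of −0.06. The 0 became 1 without naphthalene 3, 12 without osimertinib 2 (in the fit for its variance only) and 21 with only the 6 libraries. It became 202, of which 182 were lower, without naphthalene 3 and osimertinib 3 together, a setting chosen after seeing the data. On the recovered reads edgeR called 0 genes (0%, with 898 at an unadjusted p under 0.05) and DESeq2 called 12 of the 11121 genes it adjusted (0.108%). The DESeq2 calls were Cldn10, Camk2n1, Ptp4a3 and Gm10163 lower, and Slc39a8, mt-Nd1, mt-Atp8, mt-Rnr1, mt-Rnr2, Gm43085 and 2 unnamed genes higher.

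The excess of lower values depended on the scaling of the libraries. Lower genes made up 76.9% of the 1211 genes on the deposited scale, 53.5% with median-ratio size factors, 52.9% with reads thinned to equal depth, 51.5% with a term for the high read share, 49.6% with quantile normalisation, 48.4% with edgeR and 41.8% with DESeq2. With every library scaled to the same total the share was 99.8%, the median gene moved to −1.46 and 15483 genes were called lower against 26 higher. With equal totals outside ENSMUSG00000119584 the share was 99.3% and the median gene lay at −0.48. The plot of these counts by setting shows the same. Differences are therefore read below against the other genes of the same fit, on the deposited log2(value + 1) scale, and are given as values and not as changes.

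**Figure D1:**
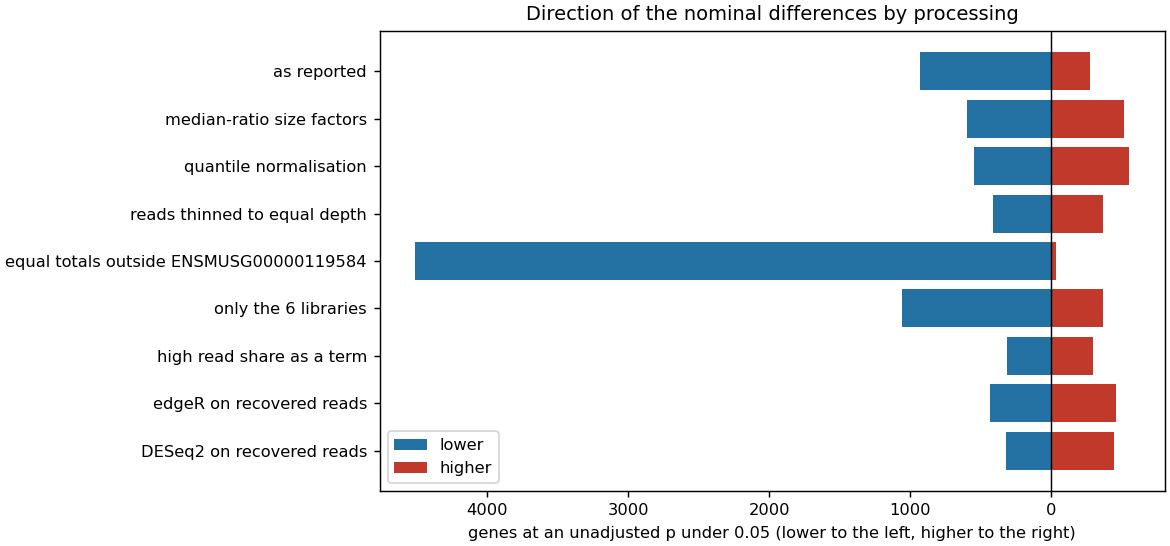
Number of genes at an unadjusted p under 0.05 (horizontal axis), lower in naphthalene to the left and higher to the right of 0, for the deposited scale and 8 other settings. The 931 lower and 280 higher genes of the deposited scale became 545 and 553 with quantile normalisation and 4511 and 33 with equal totals outside ENSMUSG00000119584.

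Among airway genes, the lowest values relative to control were in club cell genes, led by Cldn10, while ciliated cell genes lay on both sides of control. Cldn10 encodes a claudin of tight junctions that marks club cells. It read 15.0, 12.8 and 12.03 in control 1 to 3 and 5.05, 5.14 and 4.13 in naphthalene 1 to 3. With 1 read worth 0.316, 0.396 and 0.459 in naphthalene 1 to 3, these naphthalene values rest on few reads. All naphthalene values lay far under all control values, and the 5 osimertinib libraries, at 4.50 to 8.47, lay under the controls too. The log2 difference was −1.31 (SE 0.20), from 13.3 ± 1.54 (SD, n = 3) in control to 4.77 ± 0.56 (SD, n = 3) in naphthalene, with an adjusted p of 0.258 by limma. Cldn10 was below control in all 28 alternatives and passed in 5 of them. It passed with only the 6 libraries (adjusted p = 0.0349 by limma), without osimertinib 2 (0.00800 by limma) and with DESeq2 (0.00565). It passed too without naphthalene 3 and osimertinib 3 together, a setting chosen after seeing the data. The last was equal totals, where 15483 genes were called lower, so passing there is not particular to Cldn10. In osimertinib 2, set against the other osimertinib libraries, it lay at −0.60, so that with the read-share term the difference was −0.70.

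Of the proteins that club cells secrete, Scgb1a1, the secretoglobin long used to identify these cells, read 12579, 10677 and 10078 in control and 3965, 7494 and 8387 in naphthalene. Every naphthalene value was under every control value, and naphthalene 1 was the lowest of the 6. The log2 difference was −0.81 (SE 0.52; adjusted p = 0.789 by limma), with osimertinib 2 at −1.58 against its group. The haptoglobin gene Hp, for a plasma protein also made in airway epithelium, read 364, 329 and 338 in control and 239, 315 and 219 in naphthalene. These groups did not overlap either. Hp was the 1 of the 11 secreted products at an unadjusted p under 0.05, lower, beside 5.74% of all genes (log2 −0.43, SE 0.15). Scgb3a2, a secretoglobin of the same airways, overlapped, at 466, 340.0 and 326 against 276, 281 and 365 (log2 −0.29, SE 0.33). The mucin Muc5b also overlapped, at 135 to 327 in control and 73.4 to 564 in naphthalene, with naphthalene 3 the lowest of all 6. Together 7 of 11 secreted products lay below 0, near the 62.0% of all genes, and 4 above. Their median was −0.29 against −0.06 for all genes. Their values summed to 11414 to 13995 in control and 5578 to 9239 in naphthalene. Without naphthalene 3 the median turned to 0.49, and with the read-share term Scgb1a1 and Scgb3a2 turned to 0.77 and 0.78. For Scgb3a2 osimertinib 2, at 163, lay at −1.07 against its group, of which osimertinib 3 read 545 and the rest 281 to 315.

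Most of the enzymes by which club cells handle foreign compounds lay below control. Cyp2f2, the activating enzyme of naphthalene, read 1475, 1178 and 1244 in control and 682, 1203 and 647 in naphthalene. Naphthalene 2 lay within the control range and naphthalene 1 and 3 well under it, so the groups overlapped (log2 −0.67, SE 0.38; adjusted p = 0.750 by limma). Aldh1a7, an aldehyde dehydrogenase, read 77.4, 61.5 and 66.5 against 45.5, 52.2 and 47.7, with no overlap and a log2 difference of −0.49 (SE 0.13). Its relative Aldh1a1, which makes retinoic acid, read 504, 389 and 426 against 304, 374 and 316 (log2 −0.40, SE 0.13). Cyp4b1, another lung P450, read 341, 285 and 304 against 217, 237 and 229 (log2 −0.44, SE 0.13), and the carboxylesterase Ces1d 216, 208 and 223 against 139, 173 and 172 (log2 −0.42, SE 0.17). In each of these 4 enzymes all 3 naphthalene libraries were under all 3 controls. They were the 4 of 20 enzymes at an unadjusted p under 0.05, all lower, beside 5.74% of all genes. In total 17 of 20 lay below 0 (62.0% of all genes), with a median of −0.26 that stayed negative in all 28 alternatives. The reductase Por, which feeds electrons to P450 enzymes in every cell, read 151, 132 and 135 against 124, 159 and 95.9 and overlapped (log2 −0.17, SE 0.27). In osimertinib 2 the median of the enzymes against the other osimertinib libraries was −0.14. In whole-lung RNA, fewer club cells and less of these RNAs per cell cannot be told apart.

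The third group of club cell genes, surface proteins and regulators, was mixed. Of 13 tested, 10 lay below 0 (62.0% of all genes). At an unadjusted p under 0.05, 3 were lower (5.74% of all genes) and 1, Upk3a, was higher (1.73%). Cckar, the cholecystokinin A receptor, read 38.5, 35.7 and 39.4 in control and 22.7, 36.4 and 11.01 in naphthalene (log2 −0.82, SE 0.34). Naphthalene 2 was again at the control level. Slc16a11, a monocarboxylate transporter, read 32.7, 25.3 and 21.9 against 12.3, 14.6 and 16.5 with no overlap (log2 −0.83, SE 0.33). Upk3a, a uroplakin found in a small subset of club cells near neuroendocrine bodies, read 0.170, 0.393 and 0.267 against 2.21, 0.396 and 5.51. A single read is worth 0.396 in naphthalene 2, so that value is 1 read, while naphthalene 1 and 3 stood above every control (log2 1.27, SE 0.49; adjusted p = 0.611 by limma). The epithelial transcription factor Nkx2-1, which alveolar type 2 cells share with club cells, was level at 91.8, 91.5 and 89.97 against 97.6, 98.1 and 93.6 (log2 0.08).

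**Figure D2:**
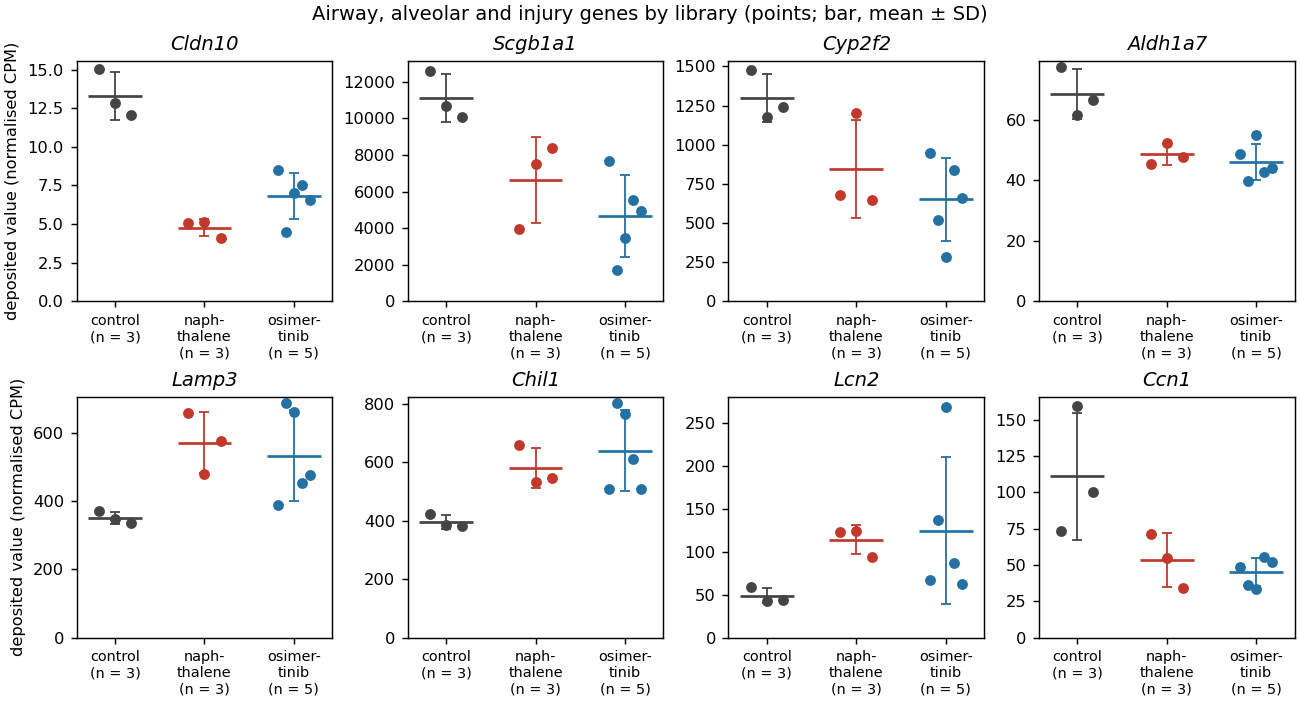
Deposited values (normalised CPM, linear axes from 0) of 8 airway, alveolar and injury genes in each library; points are libraries and bars are the mean ± SD of the 3 control, 3 naphthalene and 5 osimertinib libraries. Cldn10, Scgb1a1 and Aldh1a7 show no overlap between control and naphthalene, Cyp2f2 overlaps through naphthalene 2 at 1203, and Lamp3, Chil1 and Lcn2 are higher in all 3 naphthalene libraries than in any control on this scale; with equal totals those 3 turn to log2 −0.87, −1.02 and −0.33, where the median gene lies at −1.46.

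Of 15 markers of ciliated cells, the motile cells of the same airways, 9 lay above 0 (38.0% of all genes) and 6 below. Their median of 0.08 was −0.10 without naphthalene 2, −0.36 with equal totals outside ENSMUSG00000119584 and −1.43 with equal totals. Foxj1, the transcription factor of motile cilia, read 51.5, 42.2 and 48.5 in control and 47.4, 59.7 and 28.0 in naphthalene. Naphthalene 2 was above and naphthalene 3 below all controls (log2 −0.13, SE 0.30). Dnah5, a dynein heavy chain of cilia, read 91.2, 88.7 and 96.5 in control and 148, 142 and 51.9 in naphthalene, with naphthalene 3 again the lowest. Cfap126, a basal body protein, was the only marker at an unadjusted p under 0.05, beside 1.73% of all genes higher at that p. It read 8.75, 6.94 and 6.15 in control and 10.1, 12.3 and 12.4 in naphthalene (log2 0.61, SE 0.26, and −0.78 with equal totals). Naphthalene 3 was thus low for Foxj1 and Dnah5, at the level of the other naphthalene libraries for Cldn10 and highest of the 3 for Scgb1a1.

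Alveolar type 2 genes lay above control without exception on the deposited scale, 16 of 16 above 0 where 38.0% of all genes did, with a median of 0.29. Lamp3, a membrane protein of lamellar bodies, read 369.5, 347 and 334 in control and 657, 479 and 575 in naphthalene. No library overlapped, and the log2 difference was 0.69 (SE 0.21; adjusted p = 0.491 by limma). Chil1, a chitinase-like secreted protein, read 424, 387 and 380.2 against 659, 533 and 546, again without overlap (log2 0.54, SE 0.19). Lamp3 and Chil1 were the 2 members at an unadjusted p under 0.05 (1.73% of all genes in that direction), and 7 of 16 did not overlap (4.94%). The phosphate transporter Slc34a2 read 1691, 1564 and 1602 against 2569.7, 1914 and 2232 (log2 0.46, SE 0.22). The surfactant protein genes were closer to control: Sftpc read 6921, 5939.6 and 6527 against 8522, 6402 and 11037 (log2 0.39, SE 0.44), with naphthalene 2 among the controls, and Sftpa1 lay at log2 0.18. On average osimertinib 2 was above the other osimertinib libraries by 0.50 for Lamp3, 0.44 for Chil1 and 0.43 for Slc34a2. With the read-share term these genes were at 0.19, 0.10 and 0.03. Osimertinib 3, with a low share of ENSMUSG00000119584, read 661 for Lamp3 beside 686 in osimertinib 2 and 387 to 477 in the rest. The type 2 list summed to 34878 in osimertinib 3 and 25373 in osimertinib 2. The part of the library makeup in these genes was not tested. With equal totals the median of the 16 was −1.26, above the median gene at −1.46, and with equal totals outside ENSMUSG00000119584 it was −0.16, above −0.48.

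Most alveolar type 1 genes overlapped with control, 13 of 15, and the other 2 were higher (4.94% of all genes in that direction). Ager, the receptor by which these cells are recognised, read 787, 756 and 820.3 in control and 671, 642 and 793 in naphthalene (log2 −0.17, SE 0.17). Clic5, a chloride channel family protein, read 669, 707 and 699.5 against 702, 698 and 818, and Emp2, a membrane protein of these cells, 704, 698 and 719.9 against 646, 688 and 848. Each of the 3 had naphthalene values on both sides of at least 1 control. The caveolar protein gene Cav1, at 648, 628 and 575 against 653, 671 and 732, and the semaphorin gene Sema3e, at 96.0, 97.7 and 107 against 116, 117 and 110.1, were the 2 with no overlap, both higher (log2 0.15, SE 0.14, and 0.19, SE 0.22; −1.41 and −1.36 with equal totals). Of 15 markers, 11 were above 0 (38.0% of all genes) and 4 below. At an unadjusted p under 0.05 there were 0, and the median was 0.08, or −1.48 with equal totals.

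Among keratins and injury markers of the epithelium, Lcn2 was the furthest from control. It encodes lipocalin 2, a siderophore-binding protein that airway and alveolar epithelium makes during injury and infection. It read 58.8, 43.0 and 44.0 in control and 122, 124 and 94.1 in naphthalene. The lowest naphthalene library was well above the highest control, and the log2 difference was 1.21 (SE 0.43; adjusted p = 0.586 by limma). Lcn2 passed with only the 6 libraries (adjusted p = 0.0325 by limma) and without naphthalene 3 and osimertinib 3 together; the spread of the osimertinib libraries, at 62.8 to 268, enters the shared fit. It stayed above control in 27 of 28 alternatives, with −0.33 at equal totals. Neutrophils also carry Lcn2. Of 10 neutrophil genes tested, 8 lay above 0 (38.0% of all genes) and 0 were at an unadjusted p under 0.05. Their median was 0.22, or −0.41 without naphthalene 3. The values of the neutrophil list summed to 123 to 177 in control and to 146, 149 and 490.1 in naphthalene 1 to 3. S100a8, a calcium-binding protein abundant in neutrophils, read 15.7, 14.1 and 7.35 in control and 9.79, 4.75 and 129 in naphthalene, and its partner S100a9 25.3, 20.1 and 15.1 against 9.79, 5.93 and 146. Of granule genes, Ltf, lactoferrin, read 32.7, 35.1 and 27.1 against 17.997, 52.6 and 4.59. The collagenase Mmp8 read 2.10, 2.75 and 2.21 against 2.84, 3.16 and 10.6 (log2 0.77, SE 0.46). It was the 1 tested member without overlap (4.94% of all genes in that direction). Camp, the cathelicidin, was under the mean of 1, at 0.0568, 0 and 0 against 0.316, 0.396 and 0.459, which is 1 read in each naphthalene library. The neutrophil genes were thus high as a sum in naphthalene 3, where Lcn2 was lowest of the 3, and their part in the Lcn2 difference was not tested.

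Itgb6, the integrin beta 6 chain that activates TGF-beta in injured epithelium, read 54.0, 55.5 and 56.1 in control and 71.0, 59.3 and 66.5 in naphthalene, without overlap (log2 0.24, SE 0.11; −1.29 with equal totals). The keratins of simple epithelium overlapped: Krt8, which marks transitional alveolar cells after injury, read 92.3, 71.5 and 75.1 against 69.1, 75.5 and 91.3 (log2 −0.02), Krt18 54.6, 42.9 and 43.1 against 44.2, 45.9 and 70.7, and Krt7 148, 129 and 134 against 135, 128 and 195. Of 13 injury-associated genes, 5 were above 0 (38.0% of all genes) and 8 below. At an unadjusted p under 0.05, 2 were higher, Lcn2 and Itgb6 (1.73% of all genes), and 1 lower, Ccn1 (5.74%). Basal cells, the stem cells of larger airways, could hardly be followed: of 14 genes listed for basal cells and keratins 10 were in the table, 6 of those, Trp63, Krt14 and Krt15 among them, were under the mean of 1, and Krt5 was not analysed here.

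Inflammatory and acute-phase genes were often too low to test: of the 19 members listed in the files, 10 had a mean under 1, among them Il6, Cxcl1, Cxcl2, Ccl2 and Ccl20. Of the 9 tested, Lcn2 was higher (1.73% of all genes) and Ptgs2 lower (5.74%) at an unadjusted p under 0.05. Ptgs2, the inducible cyclooxygenase, read 10.7, 14.5 and 12.3 in control and 8.84, 11.5 and 2.75 in naphthalene (log2 −0.80, SE 0.34), with naphthalene 2 within the control range. Of 27 interferon-stimulated genes 21 lay below 0 (62.0% of all genes), with a median of −0.17 that was negative in all 28 alternatives. At an unadjusted p under 0.05, 2 of the 27 were lower and 0 higher, near the 5.74% and 1.73% of all genes. The antiviral gene Oasl2 read 23.4, 26.7 and 25.5 against 18.9, 15.8 and 21.6, and the interferon-induced GTPase Igtp 15.6, 21.6 and 23.2 against 9.16, 10.3 and 14.2. Neither overlapped (log2 −0.41, SE 0.15, and −0.79, SE 0.29), and Igtp passed without naphthalene 3 and osimertinib 3 together. In osimertinib 2 these 2 genes lay 0.13 and 0.22 above the other osimertinib libraries, opposite in sign to the naphthalene difference.

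Of the stress pathways that reactive metabolites engage, NRF2 switches on enzymes of glutathione and quinone metabolism after oxidative stress. In naphthalene, of 17 of its targets and glutathione genes 7 were above 0 and 10 below, with 0 at an unadjusted p under 0.05 and a median of −0.04. Nqo1, a quinone reductase, read 2.05, 2.62 and 1.47 in control and 1.26, 2.37 and 2.29 in naphthalene. The glutathione-synthesis enzyme Gclc read 124, 101 and 100.3 against 155, 117 and 111 (log2 0.23, SE 0.23). Both overlapped. Of 15 p53 targets, 11 were below 0 (62.0% of all genes) with a median of −0.14. Cdkn1a, the cell cycle inhibitor p21, read 23.8, 23.3 and 35.6 against 20.5, 24.1 and 25.7. Ccng1, cyclin G1, was above all controls, with 66.8, 68.6 and 66.7 in control and 90.6, 82.3 and 80.8 in naphthalene (log2 0.32, SE 0.12, and −1.22 with equal totals).

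Mitotic and replication genes, which mark dividing cells, lay mostly below control. Of 20, 18 lay below 0 (62.0% of all genes) with a median of −0.24. At an unadjusted p under 0.05, 2 were lower (5.74% of all genes) and 0 higher, and 7 of 20 did not overlap in the lower direction (11.2%). Mki67, the proliferation antigen, read 25.3, 29.5 and 37.3 in control and 25.3, 34.0 and 29.8 in naphthalene (log2 −0.04, SE 0.37). Tyms, the thymidylate synthase, read 17.96, 18.9 and 18.9 against 13.3, 14.2 and 11.9 (log2 −0.47, SE 0.15), and the chromatin protein Hmgb2 18.8, 15.8 and 16.4 against 12.9, 10.7 and 11.5 (log2 −0.50, SE 0.22). Mki67 overlapped completely and Tyms and Hmgb2 not at all. The list median in osimertinib 2 against the other osimertinib libraries was −0.43. The list summed to 142 there, within the other osimertinib libraries at 123 to 330, of which osimertinib 3 was the highest. With the read-share term the naphthalene median was 0.10.

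The plot of list members draws 16 of these lists together. Their medians lay between −0.46 for immediate early genes and 0.29 for alveolar type 2 cells.

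**Figure D3:**
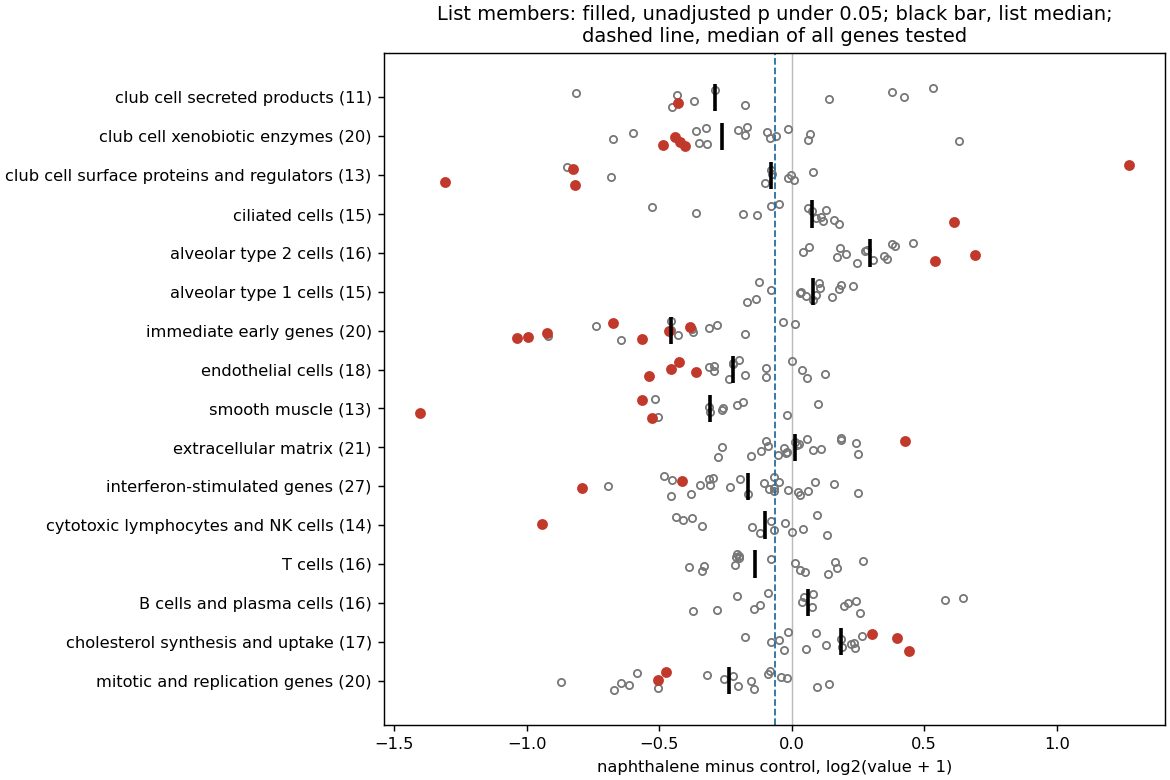
Naphthalene minus control on the log2(value + 1) scale (horizontal axis) for each tested member of 16 lists, with the number of members in parentheses; filled points had an unadjusted p under 0.05, black bars are list medians and the dashed line is the median of all genes at −0.06. All 16 alveolar type 2 genes lie above 0 on this scale and 19 of 20 immediate early genes below it; with equal totals both medians are negative (−1.26 and −1.94).

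Immediate early genes had the lowest median of the 16 lists drawn. These genes are transcribed within minutes of a stimulus, and also during tissue dissection, through CREB, SRF and AP-1 sites next to their start. Because 19 of 20 lay below control, the 250 bases before the start of Dusp1, a MAP kinase phosphatase, and Fos, a subunit of AP-1, are shown 5′ to 3′ on the gene's strand, from RefSeq (GRCm38.p6), with TGACG, the core of the CREB site, in capitals on either strand and, in Dusp1, the full site TGACGTCA. Dusp1 is at chr17:26508473-26508722 (minus strand) and Fos at chr12:85473640-85473889 (plus strand).
Dusp1: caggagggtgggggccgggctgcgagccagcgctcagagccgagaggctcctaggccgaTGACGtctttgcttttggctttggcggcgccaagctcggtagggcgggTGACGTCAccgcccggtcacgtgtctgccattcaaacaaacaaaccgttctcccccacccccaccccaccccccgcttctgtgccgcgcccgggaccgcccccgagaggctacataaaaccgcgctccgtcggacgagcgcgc
Fos: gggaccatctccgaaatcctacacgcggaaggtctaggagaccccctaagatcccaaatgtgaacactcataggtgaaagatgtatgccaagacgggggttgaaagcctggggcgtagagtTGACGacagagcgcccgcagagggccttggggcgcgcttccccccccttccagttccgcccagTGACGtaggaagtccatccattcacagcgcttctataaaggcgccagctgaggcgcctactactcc
TGACG was found on either strand in 12 of the 20 promoter entries of immediate early genes. These entries belong to 16 genes, of which 10 had it, and overlapping entries of Egr2 hold the same sites. Of all 32851 promoter entries of the same length, not matched for GC content, 17.8% had it. The full site, which contains TGACG on both strands, was found in 2 of the 20, those of Dusp1 and Btg2, and in 1.55% of all entries. A match describes the sequence and is not a measured site.

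Dusp1 read 126, 200.2 and 166 in control and 97.2, 108 and 49.1 in naphthalene. All naphthalene values were under all controls and naphthalene 3 was the lowest (log2 −0.996, SE 0.38; adjusted p = 0.611 by limma). Fos read 50.3, 56.2 and 36.1 against 42.3, 30.9 and 10.6, with naphthalene 1 inside the control range (log2 −0.92, SE 0.42). Ccn1, a matricellular protein induced with these genes, read 73.7, 159 and 100.3 against 71.0, 54.6 and 34.0, just without overlap (log2 −1.04, SE 0.30; adjusted p = 0.484 by limma). The antiproliferative gene Btg2 (log2 −0.56), the AP-1 subunit Jund (−0.38), the nuclear regulator Ier2 (−0.46) and the orphan receptor Nr4a1 (−0.68) made up the 7 of 20 at an unadjusted p under 0.05, all lower, beside 5.74% of all genes. Klf6 alone lay above 0 (log2 0.01). The controls themselves spread widely, with Nr4a1 at 42.8, 94.4 and 71.7, and the median of the list was −0.46, negative in all 28 alternatives. Osimertinib 2 was low for Dusp1 too, at −1.02 against its group, and with the read-share term Dusp1, Jund and Ier2 were at 0.02, 0.02 and 0.08, while Ccn1 and Fos were at −0.69 and −0.96.

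Of 18 endothelial genes 14 lay below 0 (62.0% of all genes) and 4 above, by small amounts. The receptor tyrosine kinase Tie1 read 152, 141 and 142 in control and 110.2, 119 and 94.996 in naphthalene. Cldn5, the claudin of endothelial tight junctions, read 129, 143 and 152 against 82.4, 97.3 and 113. In both the groups were fully apart (log2 −0.43, SE 0.11, and −0.54, SE 0.17; adjusted p = 0.466 and 0.540 by limma). Kdr, the main VEGF receptor, at log2 −0.46 (SE 0.17), and Eng, the TGF-beta co-receptor endoglin, at −0.36 (SE 0.14), did not overlap either. These were the 4 of 18 at an unadjusted p under 0.05, all lower (5.74% of all genes). In the lower direction 9 of 18 did not overlap (11.2% of all genes). The junction genes Cdh5 and Pecam1, by contrast, were at 461, 508 and 525 against 448, 497 and 449.7 and at 334, 334 and 349 against 291, 361 and 304, and both overlapped. The 18 values summed to 3663 to 4041 in control and 3008 to 3553 in naphthalene; the median was −0.22, negative in all 28 alternatives, and −0.09 in osimertinib 2 against its group. With the read-share term Cldn5 was at −0.03, Eng at −0.07, Tie1 at −0.24 and Kdr at −0.36, and the median was −0.20.

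Smooth muscle genes varied between control libraries as much as between groups. Acta2, the smooth muscle actin, read 34.1, 51.3 and 65.7 in control and 36.0, 41.9 and 24.8 in naphthalene (log2 −0.53, SE 0.23), so that control 1 lay among the naphthalene libraries. Its partner Tagln read 33.2, 45.8 and 55.8 against 26.8, 30.5 and 31.2 without overlap (log2 −0.56, SE 0.20). Cnn1, calponin, read 7.22, 10.3 and 14.7 against 5.37, 7.52 and 0.459, where the last value is 1 read (log2 −1.40, SE 0.57). In total 12 of 13 lay below 0 (62.0% of all genes), with a median of −0.31. This median was −0.17 without control 3, −0.20 without naphthalene 3 and −0.53 without control 1. With the read-share term it was −0.58, with Tagln at 0.01, Acta2 at −0.57 and Cnn1 at −1.78. Pericytes and fibroblasts gave 1 gene each way at an unadjusted p under 0.05 (5.74% of all genes lower, 1.73% higher). Cspg4, the pericyte proteoglycan NG2, was at 17.4, 26.0 and 27.9 against 12.9, 18.2 and 13.3 (log2 −0.64, SE 0.20). Gli1, the Hedgehog-responsive factor of peribronchial fibroblasts, was at 4.55, 3.60 and 4.48 against 4.74, 7.91 and 7.80 (log2 0.56, SE 0.21, and −0.74 with equal totals).

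Extracellular matrix genes had a median of 0.01 over 21, 11 above 0 and 10 below. The gelatinase Mmp2, which degrades basement membrane collagen, was the 1 gene at an unadjusted p under 0.05, higher (1.73% of all genes). It read 35.5, 35.6 and 35.2 in control and 51.1, 54.2 and 39.9 in naphthalene, all above the controls (log2 0.43, SE 0.13; adjusted p = 0.484 by limma), and −1.09 with equal totals. The osimertinib libraries, at 67.2 to 82.7, were higher again, and osimertinib 2 was not apart from them (−0.18), so that the difference was 0.61 with the read-share term. Fn1, fibronectin, overlapped at 316, 475 and 412 against 443, 505 and 293.

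Lymphocyte genes, which bear on the T cells named in the title of the series, gave few genes apart between naphthalene and control. Of 16 T cell genes 7 were above 0 and 9 below, and of 16 B cell and plasma cell genes 10 above and 6 below, each with 0 at an unadjusted p under 0.05. Cd4, the co-receptor of helper T cells, read 2.33, 3.08 and 4.88 in control and 4.74, 1.19 and 1.84 in naphthalene, where 1.19 is 3 reads (log2 −0.39, SE 0.35). Among 11 naive T cell genes Il7r, the interleukin 7 receptor chain that naive T cells need to survive, read 8.47, 11.3 and 9.02 against 15.8, 12.3 and 14.7. All naphthalene values were higher (log2 0.53, SE 0.18; adjusted p = 0.578 by limma; −0.90 with equal totals). Igfbp4 was the other member at an unadjusted p under 0.05 (1.73% of all genes higher, 5.74% lower). It went the other way, at 73.6, 97.4 and 83.9 against 51.1, 75.9 and 40.8 (log2 −0.63, SE 0.23), and stromal cells make it too. The naive T cell median was −0.10. Of 14 genes of cytotoxic lymphocytes and natural killer cells 11 were below 0 (62.0% of all genes). Klre1, a natural killer receptor, was at 3.07, 1.64 and 1.47 against 0.947, 0 and 0.918. These naphthalene values are 3, 0 and 2 reads, and the 0 allows up to 1.19. The median of that list in osimertinib 2 against its group was −0.58.

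Macrophage and dendritic cell genes lay on both sides of control, with 0 higher at an unadjusted p under 0.05. The alveolar macrophage genes had 9 of 16 above 0 (38.0% of all genes) with a median of 0.03. Of the 16, 2 were without overlap, both higher (4.94% of all genes in that direction). Chil3, a chitinase-like protein of alveolar macrophages, overlapped at 285, 258 and 292 against 369, 253 and 419. Of 19 monocyte and recruited macrophage genes 2 were lower at that p (5.74% of all genes), and the median was −0.05. Nr4a1, given above as an immediate early gene, was 1 of the 2. Csf1r, the receptor that sustains macrophages, overlapped at 83.3, 79.7 and 76.5 in control and 73.2, 72.4 and 85.4 in naphthalene. Of 16 dendritic cell and MHC class II genes 11 lay below 0 (62.0% of all genes) and 1 was lower at that p (5.74%). This was Cd209a, a lectin of dendritic cells, at 4.15, 3.86 and 5.08 against 1.26, 3.96 and 2.29, with naphthalene 2 in the control range (log2 −0.68, SE 0.31). The MHC class II chain gene Cd74 was level at 457, 514 and 474 against 485, 511 and 458. Genes of blood and of tissues that can be picked up with the lung lay mostly below control. Of 10 erythroid and platelet genes 9 lay below 0 (62.0% of all genes), with a median of −0.85. Of these, Pf4, platelet factor 4, was lower at an unadjusted p under 0.05 (5.74% of all genes), at 3.64, 6.42 and 4.08 against 2.53, 2.37 and 2.29 (log2 −0.72, SE 0.29). The list summed to 1942 to 3597 in control and 389.9 to 2779.9 in naphthalene. Its median in osimertinib 2 against its group was −1.01, and with the read-share term the naphthalene median was 0.13. The sum in osimertinib 2, 1073, lay within the other osimertinib libraries at 764 to 10382, of which osimertinib 3 was the highest. Adipocyte genes had 7 of 8 below 0 (62.0% of all genes) with a median of −0.36. That median was 0.08 without naphthalene 1, 0.07 without naphthalene 3 and 0.38 without control 2. The adipocyte enzyme Car3 read 110.4 in control 2 and 122 in naphthalene 2, and at most 10.8 in the other 4 of these libraries. Cardiac muscle genes had 9 of 11 below 0 (62.0% of all genes) with a median of −0.23, or −0.02 without naphthalene 3 and −0.07 without control 3. The adipocyte and cardiac lists both had 0 genes at an unadjusted p under 0.05.

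EGF receptor genes, whose inhibition the series studies in its osimertinib arm, gave 0 genes at an unadjusted p under 0.05 in this comparison. Egfr read 37.3, 34.4 and 40.4 in control and 48.3, 45.9 and 39.0 in naphthalene (log2 0.24, SE 0.19; −1.28 with equal totals), with naphthalene 3 inside the control range. The median of 10 receptors and ligands was −0.07. Of 13 outputs of ERK, the kinase below the receptor, Dusp4 was the 1 such gene, beside 5.74% of all genes lower at that p. It read 9.94, 8.91 and 9.62 against 6.95, 5.93 and 6.88 (log2 −0.47, SE 0.18). Of 17 cholesterol synthesis genes 12 lay above 0 (38.0% of all genes), and 3, the sterol enzymes Cyp51, Msmo1 and Sc5d, were higher at an unadjusted p under 0.05 (1.73% of all genes; log2 0.44, 0.40 and 0.30; −1.06, −1.12 and −1.21 with equal totals). Msmo1 alone of these had no overlap, at 28.5, 35.8 and 29.9 against 46.1, 39.6 and 39.0. Their median of 0.18 was −0.0033 without naphthalene 1 and −0.19 with the read-share term.

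By smallest p, the 12 named genes with the lowest values were mostly of general function. Camk2n1, an inhibitor of the kinase CaMKII, had the smallest p of all. It read 40.2, 42.2 and 45.3 in control and 28.7, 25.7 and 25.7 in naphthalene, a log2 difference of −0.65 (SE 0.10; adjusted p = 0.258 by limma). The 3 naphthalene values were tight and far under the controls, the 5 osimertinib libraries were at 36.7 to 43.1, and osimertinib 2, at 38.1, was not apart from them (−0.05). Camk2n1 passed with array weights, with DESeq2 (adjusted p = 0.0413) and when naphthalene 3 and osimertinib 3 were both left out, a setting chosen after seeing the data. It also passed with equal totals, but there 15483 genes were called lower. Ybx3, a cold shock domain protein that binds RNA, read 43.3, 45.3 and 47.3 against 30.6, 30.1 and 31.2 (log2 −0.55, SE 0.10). Rgs12, a regulator of G protein signalling, read 66.1, 63.8 and 62.7 against 42.6, 40.0 and 49.1 (log2 −0.54, SE 0.10), and Spon2, an extracellular matrix protein of the spondin family, 16.3, 20.4 and 30.8 against 11.7, 7.12 and 9.18 (log2 −1.16, SE 0.25). None of these overlapped. Osimertinib 2 against its group was at −0.10 for Ybx3 and −0.03 for Rgs12, beside −0.60 for Cldn10 and −0.27 for Ptp4a3. The others were the inosine endonuclease Endov (log2 −0.78), the homeobox factor Six5 (−0.66), the phosphatase Ptp4a3 (−0.53), the zinc transporter Slc39a6 (−0.53), the membrane protein Tmem109 (−0.63), the purine synthesis enzyme Impdh1 (−0.49), the calcium channel regulator Cracr2b (−0.76) and Cldn10. All 12 were below control in all 28 alternatives. They were picked from these same libraries by p and lack of overlap, so that count is no independent support. With equal totals and with equal totals outside ENSMUSG00000119584 the median gene itself lay at −1.46 and −0.48.

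Of the 12 named genes with higher values, 5 were mitochondrial transcripts or Lars2 and are taken up below. Of the other 7, Lilrb4a, an inhibitory receptor of myeloid cells, read 23.6, 23.4 and 19.9 in control and 32.8, 30.5 and 34.9 in naphthalene (log2 0.53, SE 0.12; adjusted p = 0.390 by limma). Gria3, a glutamate receptor subunit, read 18.1, 16.2 and 18.4 against 25.6, 24.9 and 24.8 (log2 0.49, SE 0.12). Slc39a8, a zinc and manganese transporter, read 173, 149.8 and 144 against 216, 187 and 263 (log2 0.50, SE 0.13), and DESeq2 called it (adjusted p = 0.0473). All 3 were above every control, and osimertinib 2 was not above its group for Gria3 (−0.22) or Slc39a8 (−0.0048). The others were the membrane-bending protein Baiap2l1 (log2 0.50), the endocytic adaptor Dab2 (0.39), the histone gene activator Npat (0.38) and the zinc finger protein Zfp654 (0.41). With equal totals all 7 turned to between −1.13 and −0.97, above the median gene at −1.46.

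Lars2 and the mitochondrial ribosomal RNAs were much higher in the naphthalene libraries and in osimertinib 2. mt-Rnr1, the small ribosomal RNA of mitochondria, read 57.2, 57.0 and 60.02 in control and 27303, 36836 and 101059 in naphthalene. mt-Rnr2, the large one, read 3039, 2730.3 and 2599 against 42711, 51669.9 and 171504. Lars2, the mitochondrial leucyl-tRNA synthetase, read 23.2, 24.0 and 27.2 against 51924, 79329.8 and 59224. The groups were far apart (log2 9.63, 4.70 and 11.24), and osimertinib 2, at 26723, 46594 and 45982, was high too. Each of the other osimertinib libraries was at most 314 for mt-Rnr1 and 35.2 for Lars2, but for mt-Rnr2 osimertinib 3, with a low share of ENSMUSG00000119584, read 16538, above all controls, and the remaining 3 read 2872 to 3078. With the read-share term the differences were 1.44, 1.35 and 0.67. These 3 genes, like ENSMUSG00000119584, were highest in the 4 libraries with the high read share, and its part in them beyond this term was not tested. Rpph1, the RNA of RNase P, had another pattern: it was highest in naphthalene 3 and osimertinib 3, at 13194 and 12575, and at 1593 to 4147 in the other 9 libraries.

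Mitochondrial messenger RNAs, which encode subunits of the respiratory chain, lay on both sides of control when each gene was read singly. Of 13, 5 were higher and 3 lower at an unadjusted p under 0.05 (1.73% and 5.74% of all genes). Several have an identical or near-identical nuclear copy, among them the 3 lower ones, mt-Atp6, mt-Co2 and mt-Nd4l. Summed with the copy, mt-Atp6 and mt-Nd4l were higher in all 3 naphthalene libraries than in any control, and mt-Co2 overlapped. mt-Nd1, a subunit of complex I, read 901, 960.0 and 865 in control and 1238, 1398 and 1604 in naphthalene (log2 0.63, SE 0.17), and DESeq2 called it (adjusted p = 0.00230). mt-Nd2 (log2 0.57) and mt-Cytb of complex III (0.50) were without overlap as well, whereas mt-Co1 of complex IV overlapped (0.10); with equal totals they were at −0.93, −0.99, −1.06 and −1.46. mt-Atp8, a subunit of ATP synthase, had the smallest p of the higher genes, at 28.5, 25.7 and 27.7 against 80.2, 108 and 96.4 (log2 1.75, SE 0.30; adjusted p = 0.317 by limma), with osimertinib 2 at 71.5 against 26.3 to 33.5 in its group. mt-Nd6, another subunit of complex I, read 84.7, 90.6 and 94.0 against 204, 240.1 and 155 (log2 1.12, SE 0.39; −0.43 with equal totals and −0.17 with the read-share term), with osimertinib 2 at 1.29 above its group. mt-Atp6, whose reading frame overlaps that of mt-Atp8, went the other way, at 1274, 1103 and 976 against 95.03, 178 and 138 (log2 −3.05, SE 0.89; 0.95 with the read-share term). The other lower messenger RNAs were mt-Co2, given with its copy below, and the complex I subunit mt-Nd4l. Read singly, mt-Nd4l overlapped at 43.2, 30.5 and 37.8 against 26.5, 26.9 and 31.7 (log2 −0.37, SE 0.17). Its copy Gm10222 is identical over 294 bases. The sums of mt-Nd4l and Gm10222 were 113, 118 and 99.1 in control and 135, 152 and 146 in naphthalene, higher without overlap.

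The nuclear genome holds a near-complete copy of this stretch of mitochondrial DNA on chromosome 1, and the start of each gene is shown beside its copy because the letters decide what a read can tell apart. The first 60 bases of the annotated transcripts are given 5′ to 3′ (GENCODE M21, GRCm38), with mt-Atp6 at chrM:7927-8607 and mt-Nd3 at chrM:9459-9806 on the plus strand, and the unprocessed pseudogenes Gm10925 at chr1:24613974-24614651 and Gm28438 at chr1:24612775-24613119 on the minus strand; capitals mark the only base that differs.
mt-Atp6: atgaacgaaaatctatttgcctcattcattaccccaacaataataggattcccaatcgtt
Gm10925: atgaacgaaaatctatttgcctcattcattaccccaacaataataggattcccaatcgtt
mt-Nd3: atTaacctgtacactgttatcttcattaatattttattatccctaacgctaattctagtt
Gm28438: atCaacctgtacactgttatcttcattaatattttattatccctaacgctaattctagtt
mt-Atp6 and Gm10925 were identical over all 678 aligned bases. mt-Nd3 and Gm28438 differed at 1 of 345, the change T3C counted from the first base of the transcript. mt-Co2 and Gm28661 were identical over 681 bases and mt-Co3 and Gm28437 over 783.

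Read as single genes some of these pairs differed far more between the groups than their sums. Gm10925 read 182, 429 and 454 in control and 1581, 1769 and 2299 in naphthalene, the mirror image of mt-Atp6. The sums of mt-Atp6 and Gm10925 were 1456, 1532 and 1429 against 1676, 1948 and 2437, all naphthalene sums above all controls by far less than either gene alone. In osimertinib 2 the pair read 79.9 and 1685, the naphthalene pattern, and in osimertinib 3 it read 2206 and 0, the opposite one. For mt-Co2 the naphthalene libraries were listed at 0 in all 3, against 8.86, 10.1 and 10.4 in control, while Gm28661 carried 1283, 1694 and 1841 against 1334, 1507 and 1374. mt-Co3 read 0.631 and 0.396 in naphthalene 1 and 2 but 504 in naphthalene 3, against 581, 259 and 265 in control, and with Gm28437 the sums were 1699, 1812 and 2403 against 1670.4, 1667 and 1527. Gm28438 was listed at 0 in every control and at 101, 104 and 30.3 in naphthalene, and at 49.0 in osimertinib 2 alone of its group. A value for either member of such a pair is therefore uncertain, and the sums are the better-founded measurement.

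**Figure D4:**
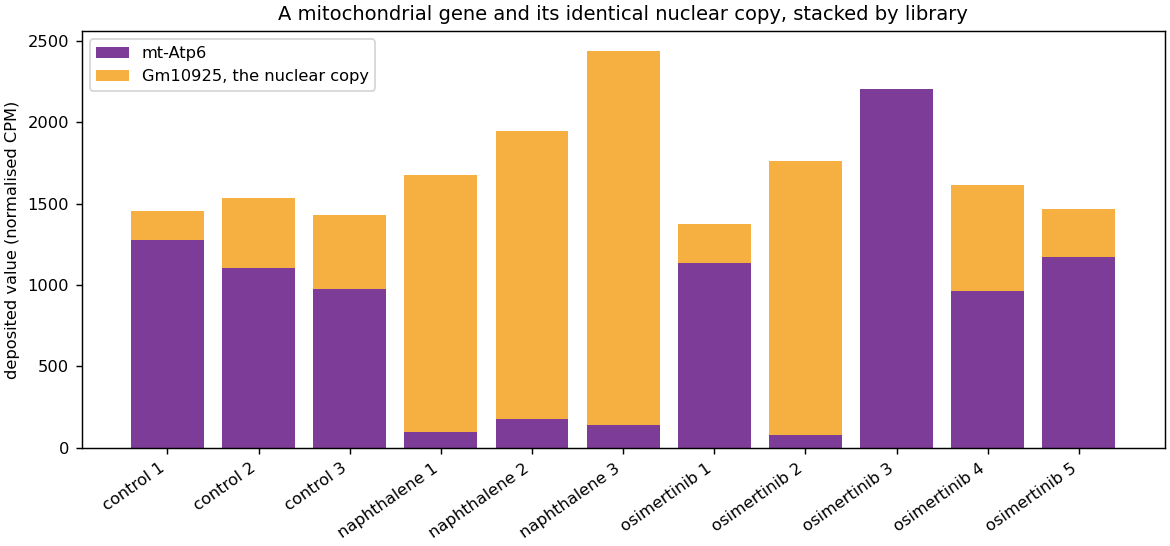
Deposited values (normalised CPM, linear axis from 0) of mt-Atp6 and of Gm10925, its identical nuclear copy, stacked for each of the 11 libraries. In the 3 naphthalene libraries and osimertinib 2 most of the sum is listed under Gm10925 and in the other libraries under mt-Atp6, while the sums of the naphthalene libraries (1676, 1948 and 2437) exceed those of the controls (1429 to 1532) by less than the gap between the groups in either gene.

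The genes that read lower in naphthalene were more often rich in G and C. Among the 4040 genes with the lowest GC content of the longest transcript, 28.7 to 43.9%, 2.85% were lower and 3.32% higher at an unadjusted p under 0.05. Among the 4040 with the highest, 53.8 to 78.3%, 9.78% were lower and 0.644% higher, and the median difference went from 0.01 to −0.15 across the 4 GC groups. The 12 named lower genes had a median GC of 56.4% and the 12 named higher genes 39.7%, against 48.8% for all genes. Osimertinib 2 against the other osimertinib libraries gave medians of 0.02 and −0.13 in the lowest and highest GC group. The immediate early list had a median GC of 54.5%, the club cell enzymes 49.1%, the endothelial list 51.7% and the alveolar type 2 list 50.9%. The part of GC content in these results was not tested.

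**Figure D5:**
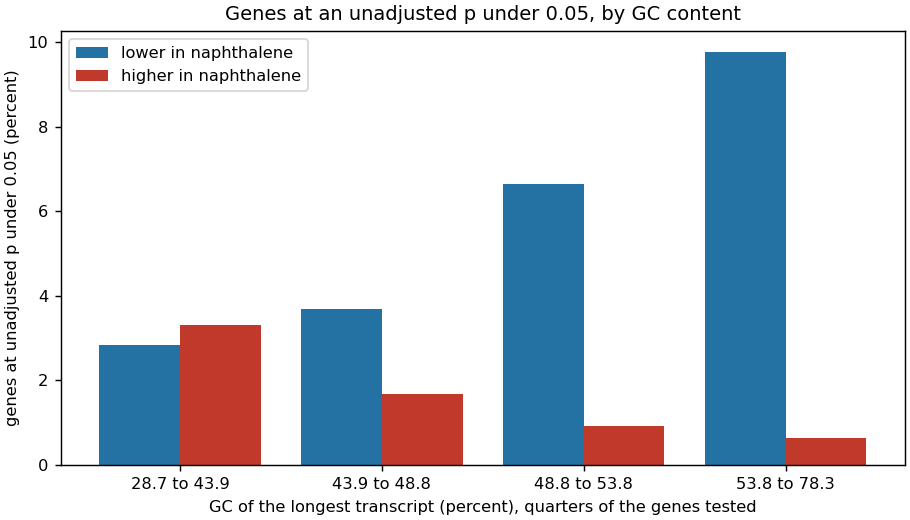
Percent of genes at an unadjusted p under 0.05 (vertical axis, from 0) that were lower or higher in naphthalene, in 4 equal groups of 4040 genes by the GC content of their longest transcript (horizontal axis, percent). The share of lower genes goes from 2.85 to 9.78% and that of higher genes from 3.32 to 0.644%.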

How the data were processed

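Directional libraries of ribosomal RNA-depleted lung RNA were measured, per the labels' protocols. The authors deposited normalised signal values, which are CPM taken over TMM-adjusted library sizes. Per the submitters' processing notes, the tools were edgeR, Bowtie2, Trimmomatic 0.38 and RSEM 1.3.0 and the build was GRCm39; the annotation is not given in the sources used here. All values were whole multiples of their library's smallest value within 0.01 (100%), which gave back the reads and depths. Intervals and floors (3 reads) cover counting error only. Gene names, GC content and coordinates came from GENCODE M21 and RefSeq (GRCm38), which named 23123 of 23255 genes; only sequences with their own build are printed by position. Promoters were the 250 bases before each RefSeq start.

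Genes with a mean of at least 1 over the 11 libraries (16225) entered limma 3.58.1 (R 4.3.3) on the log2(value + 1) scale with a mean-variance trend; 1 fit held all 3 groups, leaving 8 residual degrees of freedom. P-values were adjusted by Benjamini and Hochberg's method, with a threshold of 0.05. The recovered counts were also tested with edgeR 4.0.16 and DESeq2 1.42.0, which gave no adjusted p for 5104 genes. The pipeline was tested on simulated data. Named genes were, in each direction, the 12 with the smallest p among genes with a mean of at least 5, groups that do not overlap and a gene symbol; of each list the 4 with the highest mean and those at an unadjusted p under 0.05; and fixed anchors. The nuclear copies of mitochondrial genes and Gm43085, Gm10163, Gm14440, Gm42742, Rny3, Cav1, Sema3e, Mmp8, Ltf and Camp were named after their values were seen. Members, lists and tests were chosen with earlier results of these data known. Libraries with the same replicate number in control and naphthalene did not deviate together (correlations −0.06, 0.20 and −0.09), so the numbers were not taken as pairs. Alternatives changed the pseudocount, filter, scaling, depth, weights, variance trend, covariates, libraries or test.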

Additional observations from a re-analysis of the deposited data

Results flagged for a closer look

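In 5 measures osimertinib 2 lay far above the other 4 osimertinib libraries, by Dixon's criterion for 5 samples, which flags about 1 in 20 groups by chance. The criterion was applied to the share of ENSMUSG00000119584 and to a set of chosen genes. Only the flagged measures are given, so that rate does not hold for them. Osimertinib 2 held ENSMUSG00000119584 at 43.9% of its reads, where the others held 0.0214 to 0.0337%. It read 45982 for Lars2, where the others read 25.6 to 35.2. It read 26723 for mt-Rnr1, where the others read 54.3 to 314. It read 71.5 for mt-Atp8, where the others read 26.3 to 33.5. It read 40.0 for mt-Co2, where the others were listed at 0, so that any value above 0 would have been flagged. In the first 4 of these measures the naphthalene libraries were high too, and in mt-Co2 they were listed at 0.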

How the results depend on the processing

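The count of genes past an adjusted p of 0.05 was 0 as reported and 0 in 20 of 28 alternatives. It was 15509 with equal totals, 21 with only the 6 libraries, 5 with array weights (Camk2n1, Gm10163 and Gm14440 lower, mt-Atp8 and Rny3 higher), 2 with a term for the high read share (mt-Co2 lower, Gm42742 higher), 12 with DESeq2 and 202 without naphthalene 3 and osimertinib 3 together, a setting chosen after seeing the data. Leaving out 1 library in turn gave 0 to 12: 1 without naphthalene 3 (Gm14440, lower) and 12 without osimertinib 2. The cause was not tested. Counts at an unadjusted p under 0.05 were 280 higher and 931 lower as reported, 426 and 1478 without a filter, 517 and 595 with median-ratio factors, 370 and 415 with thinned reads, 372 and 1059 with the 6 libraries, 422 and 1581 with array weights, 295 and 313 with the read-share term, 463 and 1416 without osimertinib 3, 163 and 501 without control 3, and 445 and 319 with DESeq2. With the replicate number as a block, which pairs libraries by number only, there were 0 calls and 199 higher and 721 lower genes.

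With equal totals, whose median gene was at −1.46, genes above 0 as reported were called below 0. The log2 values were −0.76 for S100a8, −0.78 for Cfap126, −0.87 for Lamp3, −0.90 for Il7r, −0.95 for Gm43085, −0.97 for Lilrb4a, −0.99 for Gria3, −0.99 for mt-Nd2, −1.02 for Baiap2l1, −1.02 for Chil1, −1.03 for Gm28437, −1.05 for Slc39a8, −1.06 for Cyp51, −1.06 for mt-Cytb, −1.09 for Mmp2, −1.10 for Slc34a2, −1.10 for Zfp654, −1.11 for Npat, −1.12 for Msmo1 and −1.13 for Dab2. They were −1.21 for Sc5d, −1.22 for Ccng1, −1.27 for Chil3, −1.28 for Egfr, −1.29 for Itgb6, −1.32 for Gclc, −1.34 for S100a9, −1.35 for mt-Nd3, −1.36 for Krt18, −1.36 for Sema3e, −1.38 for Dnah5, −1.38 for Gm28661, −1.38 for Sftpa1, −1.41 for Muc5b, −1.41 for Cav1, −1.42 for Krt7, −1.46 for Nkx2-1, −1.46 for mt-Co1, −1.47 for Clic5, −1.53 for Emp2, −1.53 for Fn1, −1.53 for Klf6 and −1.55 for Cd74. Without naphthalene 3 and osimertinib 3 together S100a9 was called at −1.26. Depth limits genes near 1, where a naphthalene library holds 2 or 3 reads.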
